A study of Mus musculus with 3 samples.

Results

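The response of RAW 264.7 macrophages to lipopolysaccharide (LPS) was compared directly between cells that had first been exposed to Lacticaseibacillus rhamnosus CRL1505 and cells that had first been exposed to Lactiplantibacillus plantarum CRL1506, which are 2 of the 3 arrays in the series. The arrays were taken by their titles, and no measured value entered the choice. RAW 264.7 is an established mouse macrophage line that expresses the LPS receptor TLR4. Both groups received lactobacilli at 50000000 cells/mL for 24 h, were washed, and then received LPS at 50 ng/mL, whereas the group labelled LPS received LPS with no lactobacilli. The duration of LPS is given as 12 h in the study's methods and as 3 h in the sample descriptions, and these sources do not settle it. Total RNA was hybridised to 1-colour Agilent mouse arrays, with 1 array a group, so that no replicate error, SD or p-value exists for any value and each difference is between these 2 arrays. The level on the LPS array is given beside named genes for reference and entered no difference. On that array 5.50% of gene spots were unevenly read or lay near such spots, against 2.14% with CRL1505 and 3.73% with CRL1506. Orders that include an LPS level are not marked for uneven spots on the LPS array, so they are less certain than the differences between the strains.

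The processed signal of each spot was put on the log2 scale and the array's 75th percentile was subtracted, so that a level of 0 is that percentile, and a difference is the level with CRL1505 minus the level with CRL1506 on the log2 scale. Where 3 levels follow a gene they are those with CRL1505, CRL1506 and LPS in this order, and a value in parentheses after a gene or its levels is the difference between the strains. Of 24842 genes with a symbol, 15324 had a probe well above background on either array and were compared, of which 12855 were above background on both, 623 with CRL1505 only and 1846 with CRL1506 only. For a gene above background on 1 array only, the difference is a lower bound and is written as at least that size. The arrays differed in brightness. With CRL1505, 48.5% of gene spots were well above background and the 75th percentile was a signal of 517, against 55.3% and 697.9 with CRL1506 and 54.5% and 743.1 with LPS, while the spiked-in control RNA had a median signal of 1304, 1286 and 1310. The CRL1505 array was on another slide and in another scan run than the other 2 arrays, so strain and slide or scan run cannot be told apart in any value below. Because the RNA came from whole cultures, fewer cells of a kind and less RNA per cell cannot be told apart either.

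LPS binds TLR4 with its co-receptors CD14 and MD-2. Signalling through MyD88 activates NF-kappaB and AP-1, which drive cytokine and chemokine genes, and signalling through TRIF activates IRF3, which drives interferon beta. Secreted interferon then acts back on the cells through its receptor and a transcription factor complex with IRF9 that binds the interferon-stimulated response element (ISRE) in the promoters of antiviral genes, while E2F factors bind promoters of genes for DNA replication.

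Promoters from 3 gene groups described below are shown because each group is known for regulation by 1 of these factors. They are given as in RefSeq on the GRCm38.p6 build, 5′ to 3′ on the gene's strand, with 30 bases on either side of the match and the match in capitals. The core of the ISRE was searched as GAAA, any 2 bases and GAAA again, the E2F site as TTTNGCGC and the NF-kappaB site as GGGA, any base and TTTCC, each on both strands and in the window from 250 bases before to 50 bases after the start. For each group, the members printed have the largest differences among those whose match and flanks lay wholly in the 250 bases before the start. Members on 1 chromosome were not considered for printing. None of the printed matches overlapped another of the searched motifs. From the guanylate-binding proteins (Gbp) and immunity-related GTPases, all higher with CRL1505, these are Gbp5 at chr3:142496739-142496808 on the plus strand with the match 165 to 156 bases before the start, Gbp2b at chr3:142594680-142594749 on the plus strand, Gbp2 at chr3:142620574-142620643 on the plus strand and Tgtp2 at chr11:49064243-49064312 on the minus strand.
Gbp5: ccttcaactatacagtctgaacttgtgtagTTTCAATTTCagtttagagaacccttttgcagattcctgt
Gbp2b: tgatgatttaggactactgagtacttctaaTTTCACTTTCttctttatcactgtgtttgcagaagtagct
Gbp2: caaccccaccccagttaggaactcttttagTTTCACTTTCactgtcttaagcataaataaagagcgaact
Tgtp2: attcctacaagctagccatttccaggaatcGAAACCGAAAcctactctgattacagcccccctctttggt

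From the DNA replication genes, most of them lower with CRL1505, the E2F matches shown are Uhrf1 at chr17:56304098-56304165 on the plus strand, Mcm6 at chr1:128359715-128359782 on the minus strand and Mcm5 at chr8:75109330-75109397 on the plus strand.
Uhrf1: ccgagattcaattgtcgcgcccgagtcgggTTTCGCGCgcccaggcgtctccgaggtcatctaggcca
Mcm6: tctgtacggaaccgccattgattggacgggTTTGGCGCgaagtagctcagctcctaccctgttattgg
Mcm5: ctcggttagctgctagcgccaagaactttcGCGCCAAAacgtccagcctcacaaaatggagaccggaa

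From the cytokines and chemokines, the NF-kappaB matches shown are Il6 at chr5:30013040-30013109 on the plus strand, 44 to 35 bases before the start, Csf1 at chr3:107760584-107760653 on the minus strand and Cxcl2 at chr5:90903772-90903841 on the plus strand.
Il6: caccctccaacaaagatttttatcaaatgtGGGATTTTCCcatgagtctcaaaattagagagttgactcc
Csf1: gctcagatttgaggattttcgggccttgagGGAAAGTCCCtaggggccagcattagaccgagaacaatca
Cxcl2: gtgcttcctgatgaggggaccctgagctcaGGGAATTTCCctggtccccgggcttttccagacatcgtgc

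Over all genes, 1368 were at least 2-fold higher with CRL1505 (8.93% of those compared, 426 of them by a lower bound) and 1035 were at least 2-fold higher with CRL1506 (6.75%, 359 by a lower bound), or 15.7% in either direction. The median difference of genes above background on both arrays was 0.09 with an SD over genes of 0.69, and that of all 15324 genes compared, bounds included, was 0.03. The split between the directions depended on how the arrays were scaled. CRL1505 held 56.9% of the genes past 2-fold with the 75th percentile, 90.1% when medians over all gene spots were matched, 38.9% when the percentile was taken over detected probes and 17.7% when the spiked-in controls were matched, and the median of genes above background on both arrays then lay at 0.59, -0.10 and -0.42. For these genes, matching medians added 0.50 to every difference and matching the spiked-in controls took 0.52 from it, so that a difference smaller than these turned sign under 1 of them. Quantile normalization, cyclic loess, normexp with quantile normalization and the authors' deposited log2 table gave 65.2%, 69.8%, 63.5% and 62.5%. A list of genes is therefore described by its counts and its median with the 75th percentile, and its range is over these 7 normalizations. The counts of a list are to be read beside the 8.93% and 6.75% over all genes compared. Of 34 lists with more members past 2-fold with CRL1505 than with CRL1506, 14 kept that order when the spiked-in controls were matched, 7 held as many of each and 13 held more with CRL1506. With the 75th percentile and all 7 others, 250 genes above background on both arrays were at least 2-fold higher with CRL1505 and 138 with CRL1506. Of the 250, 26 belonged to the lists of interferon-stimulated genes and 5 to those of the cell cycle and histones, whereas of the 138, 0 belonged to the former and 19 to the latter. These lists held 92 and 126 of the 15324 genes compared. The histone list, which was added after values were seen, held 5 of the 5 and 11 of the 19.

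**Figure D1:**
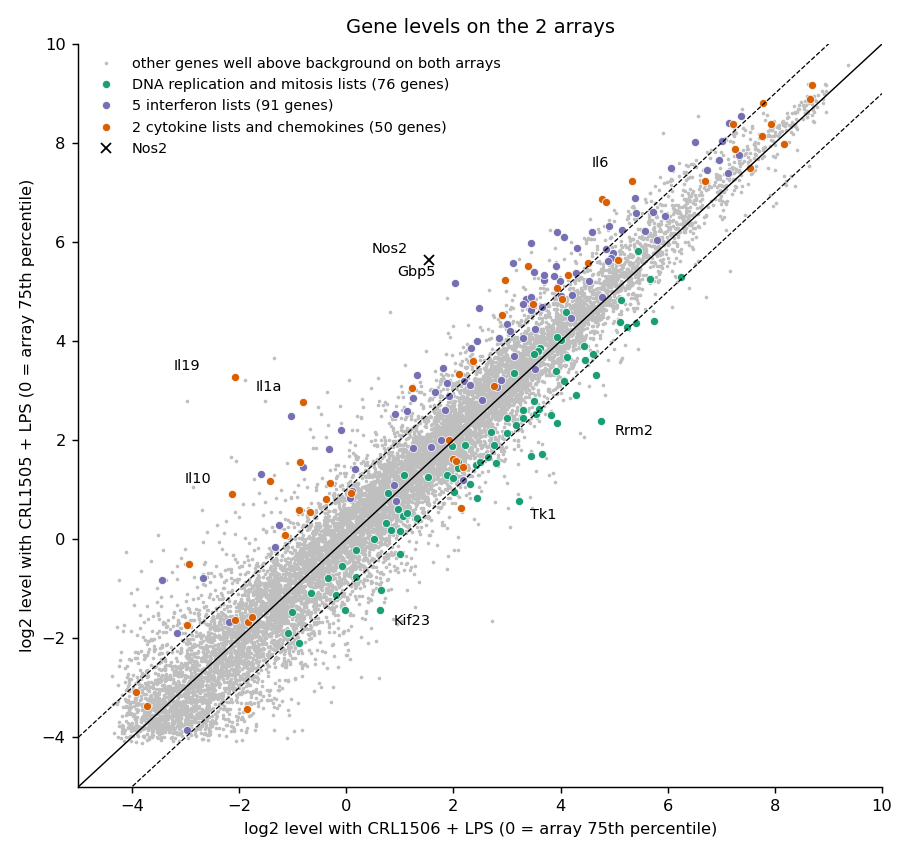
Level of each of 12855 genes with CRL1506 (x axis) and with CRL1505 (y axis), on the log2 scale relative to each array's 75th percentile, where each point is 1 gene above background on both arrays, the solid line marks equal levels and the dashed lines mark 2-fold. The 91 interferon-list genes lie mostly above the diagonal, the 76 replication and mitosis genes mostly below it, and the cross marks Nos2, at 5.64 with CRL1505 and 1.55 with CRL1506.

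Motif matches were counted over the same groups. Shares are of genes with a promoter window, and a gene was counted if any of its windows held a match. An ISRE core was present in 3.99% of all 27025 such genes and in 4.02% of the 12143 among the genes compared. The share was 10.7% (115 of 1075) of the genes higher with CRL1505 and 3.38% (27 of 800) of the genes higher with CRL1506. Of the 18 guanylate-binding and immunity-related GTPases compared, 10 had a window, and 9 of these held the core. Of the 40 IFIT and other antiviral genes, 29 had a window, and 14 of these held it. The E2F site was present in 1.57% of all genes with a window, in 2.54% of the genes compared, in 3.00% (24 of 800) of the genes higher with CRL1506 and in 10 of 30 DNA replication genes. The NF-kappaB site was rarer, at 0.466% of all genes with a window, and was found in 3 of 17 cytokine and 2 of 15 chemokine genes. A match is a description of letters in a window, and no binding was measured.

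Proinflammatory and growth cytokines were higher with CRL1505. Of 30 listed, 23 were compared, and 13 were at least 2-fold higher with CRL1505 against 1, Il2, at least 2-fold higher with CRL1506 by a lower bound. Their median difference was 1.19, with a range of 0.67 to 1.68, and 8 to 17 members passed 2-fold with CRL1505 over the normalizations. Il1a, the cell-associated interleukin 1, stood at 2.77 with CRL1505, -0.81 with CRL1506 and -0.56 with LPS, a difference of 3.58 or 12.0-fold. Il1b, the secreted form, stood at 6.87, 4.77 and 5.81 in the same order, a difference of 2.10, with its 3 probes between 1.0 and 2.78 and an uneven spot on the CRL1506 array. In both genes the CRL1505 array was the high one and CRL1506 lay below LPS. Il6, which drives the acute-phase response, stood at 7.23, 5.33 and 2.98, so that both strains lay above LPS and CRL1505 was 3.73-fold above CRL1506, with its 2 probes at 1.90 and 2.04.

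Ifnb1, the interferon beta gene that TLR4 induces through TRIF, had the same order as Il6, with levels of 5.08, 3.93 and 1.61 and a difference of 1.15. Csf3, the granulocyte growth factor, stood at 0.81, -0.38 and -2.73, a difference of 1.19. In these genes CRL1506 lay between LPS and CRL1505. Csf2, the granulocyte-macrophage growth factor, stood at 1.18 with CRL1505 and -1.43 with CRL1506, a difference of 2.60 on unevenly read spots, and its spot was an outlier on the LPS array. Il15, which sustains natural killer and memory T cells, had a difference of 2.27, but its 3 probes ran from -0.80 to 2.31. Il18 differed by 1.82, Osm by 1.62, Csf1 by 1.27, Il23a by 1.25 and Tnfsf15 by 1.22, whereas Tnfsf10, the death ligand TRAIL, had 1 probe at 2.42 and another at 0.12.

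Not every cytokine gene differed. Tnf, the main early product of LPS-stimulated macrophages, stood at 7.24 with CRL1505, 6.70 with CRL1506 and 7.09 with LPS, a difference of 0.54 that ranged from 0.02 to 1.04 over the normalizations. Il12b, the shared subunit of interleukins 12 and 23, stood at -1.68, -1.83 and -0.98, a difference of 0.15 whose sign turned over the normalizations, from -0.37 to 0.65. Ltb stood lower with CRL1505 by -0.36, with the sign also turning, to 0.14. Ifng, Il9, Il12a, Il11, Clcf1, Tnfsf14 and Il1f8 were not well above background with either strain.

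Regulatory cytokines and SOCS proteins, which dampen cytokine signalling, were also higher, and held the largest difference among named genes above background on both arrays. All 16 were compared, with 10 at least 2-fold higher with CRL1505, 2 at least 2-fold higher with CRL1506 and a median of 1.14, and 4 to 10 passed 2-fold with CRL1505 over the normalizations. Il19, an interleukin 10 family member, stood at 3.27 with CRL1505, -2.08 with CRL1506 and -3.30 with LPS, a difference of 5.35 or 40.7-fold, and its 2 probes gave 4.94 and 5.35. Il10, the anti-inflammatory cytokine itself, stood at 0.91, -2.13 and -2.06, a difference of 3.04 or 8.25-fold. CRL1505 stood alone in both genes, and CRL1506 lay close to LPS for Il10. Il1rn, the antagonist that blocks the interleukin 1 receptor, stood at 5.51, 3.40 and 2.50, a difference of 2.11. Socs3, which limits STAT3 signalling, stood at 6.81, 4.84 and 5.33, a difference of 1.97, and Socs1, which limits JAK signalling, at 3.34, 2.10 and 1.80, a difference of 1.24. Il18bp differed by 1.47, but it turned below 0 with outlier spots kept, which gave the list 9 and 3 past 2-fold. Il27 differed by 1.24, Cish by 1.23 and Ebi3 by 1.05. With outlier spots left out, the 2 genes higher with CRL1506 were Tgfbi, a matrix protein induced by TGF-beta, at 0.63, 2.14 and 3.00, and Socs2, at -3.44 and -1.85 on unevenly read spots and not above background with LPS. Tgfb1 and its receptors Tgfbr1 and Tgfbr2 differed by -0.46, 0.19 and 0.10, and the sign of each turned over the normalizations.

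Genes that answer to interleukin 10 and STAT3 in macrophages were higher as well, with 11 of 20 at least 2-fold higher with CRL1505, 0 in the other direction and a median of 1.22 that ranged from 0.70 to 1.72. Lcn2, the iron-sequestering lipocalin, stood at 8.19 with CRL1505, 5.91 with CRL1506 and 4.27 with LPS, a difference of 2.28 (second probe 2.92), and Saa3, an acute-phase protein, at 8.55, 6.56 and 7.41, a difference of 1.99. Marco, a scavenger receptor, stood at 8.68, 7.38 and 6.38, a difference of 1.30, and Stat3 itself differed by 1.14 with another probe at -0.75. Several members, among them Socs3, Tnfaip3 and Bcl3, also belong to other lists, so these lists do not give separate counts.

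**Figure D2:**
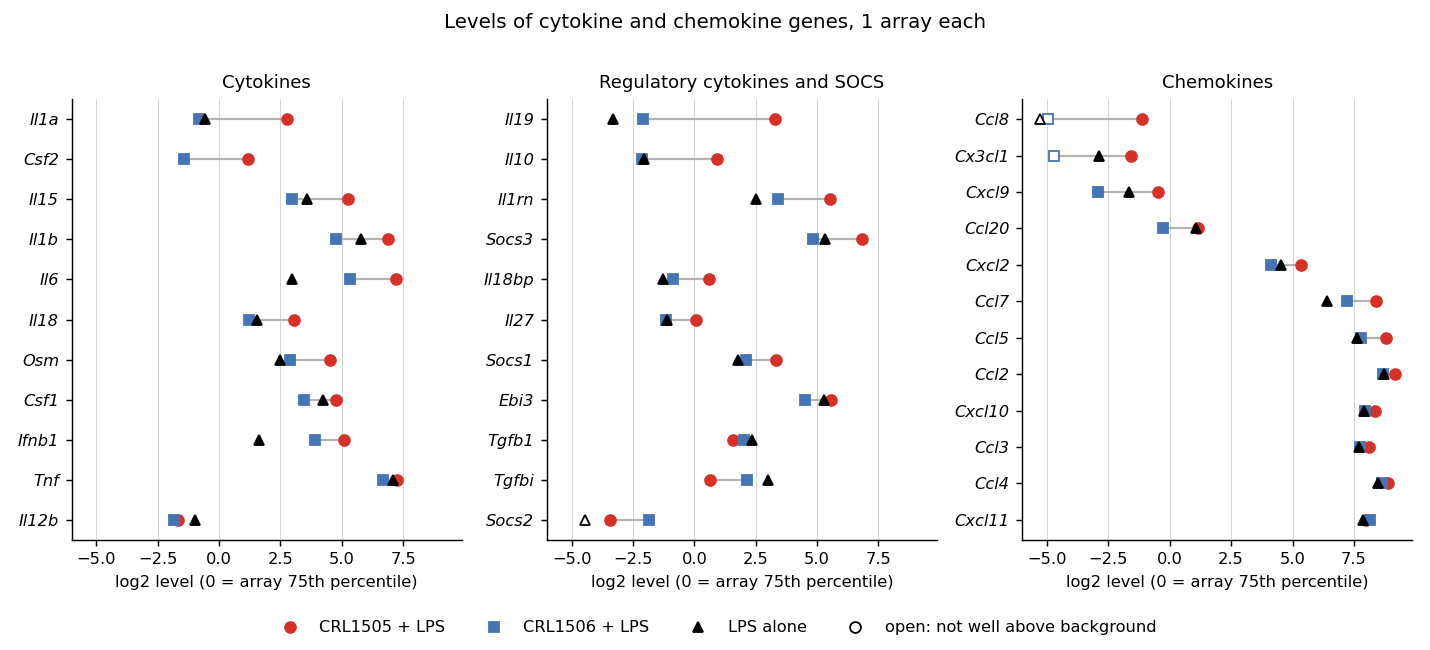
Levels of cytokine, regulatory and chemokine genes on the LPS array (triangle), the CRL1505 array (circle) and the CRL1506 array (square), on the log2 scale relative to each array's 75th percentile, with open symbols where the probe was not well above background. Il19 and Il10 are high with CRL1505 alone, Il6 and Ifnb1 are raised with both strains over LPS, and Tnf, Ccl2 and Cxcl10 lie close together on all 3 arrays.

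Chemokines differed less than cytokines as a list. Of 22 compared, 7 were at least 2-fold higher with CRL1505 and 0 with CRL1506, with a median of 0.41 that became -0.06, with 3 and 1 past 2-fold, when the spiked-in controls were matched. Ccl8, a monocyte attractant, stood at -1.11 with CRL1505 and was not well above background with CRL1506 or LPS, a difference of at least 3.29. Cx3cl1, the membrane-bound fractalkine, stood at -1.56 and was not above background with CRL1506, a difference of at least 2.84, with -2.88 on the LPS array. Cxcl9, an interferon gamma-induced attractant of T cells, stood at -0.50, -2.93 and -1.66, a difference of 2.43 or 5.40-fold. These 3 had the largest differences of the list. Ccl7, another monocyte attractant, stood at 8.38, 7.22 and 6.39 (1.16), and Ccl5, which attracts T cells, at 8.80, 7.78 and 7.62 (1.02), both with the order CRL1505, CRL1506, LPS. Cxcl2, which attracts neutrophils, stood at 5.33, 4.14 and 4.51 (1.19), and Ccl20 differed by 1.43. Ccl2 differed by 0.48, Ccl3 by 0.38, Ccl4 by 0.23, Cxcl10 by 0.44 and Cxcl11 by -0.19, and each of these had values on both sides of 0 over the normalizations. The 2 monocyte attractants Ccl7 and Ccl2 thus lay on either side of the 2-fold line.

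Chemokine receptors had 0 of 13 at least 2-fold higher with CRL1505 and 3 at least 2-fold higher with CRL1506, or 4 and 3 when the arrays' medians were matched. Cx3cr1, the fractalkine receptor, was not well above background with CRL1505 and stood at -0.39 with CRL1506 and 1.71 with LPS, a difference of at least 13.3-fold, with bounds of -3.73 and -1.97 for its 2 probes. Cxcr3 stood at -3.85, -1.35 and -0.62, a difference of -2.50, and Cxcr4 was below background with CRL1505, a bound of -1.51. For Cx3cr1 and Cxcr3 the order was therefore LPS, CRL1506, CRL1505 from high to low. Between the strains, Cx3cr1 differed in the direction opposite to that of its ligand Cx3cl1. Ackr4, an atypical scavenging receptor outside the list, stood at 0.64 with CRL1506 and was not above background with CRL1505, a bound of -4.76.

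Cytokine receptors moved in both directions, with 4 of 28 at least 2-fold higher with each strain and a median of 0.11, against 0.03 over all genes compared. These counts became 8 and 1 with matched medians and 2 and 8 with matched spiked-in controls. Il15ra, which presents interleukin 15, stood at 6.0, 4.19 and 4.30 (1.81, with all 3 probes over 1.18), and Il13ra1 differed by 1.79. Tnfrsf1a, the main TNF receptor, differed by 1.14. Il7r stood at 0.98, 2.51 and 1.27, a difference of -1.54, and Il6ra differed by -1.05. In the TNF receptor superfamily, a list added after values were seen, 8 of 18 were at least 2-fold higher with CRL1505 and 0 with CRL1506, or 4 with each strain when the spiked-in controls were matched. Tnfrsf9, the costimulatory receptor 4-1BB, led at 2.98, -0.36 and 1.56, a difference of 3.34 with its 2 probes at 3.09 and 3.34. Tnfrsf11a, the RANK receptor of osteoclast precursors, stood at 3.71, 1.97 and 2.37, a difference of 1.74, so that both receptors were high with CRL1505 and CRL1506 lay below LPS. Adhesion molecules had 3 of 25 higher with CRL1505 and 1 with CRL1506, or 1 and 5 with matched spiked-in controls, with Itgb7 at 1.58 and Icam1 at 0.93, while Vcam1 and Selp were not above background on either array.

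Most interferon-stimulated genes were higher with CRL1505. In 5 lists together, 54 of 92 genes compared were at least 2-fold higher with CRL1505 and 0 with CRL1506 in the main setting. Below 0 lay 1 gene of the oligoadenylate synthetase list, at -0.99, and 3 of the signal-carrying factors, the lowest at -0.88. Each of these lists held 1 gene at least 2-fold higher with CRL1506 with matched spiked-in controls or the percentile over detected probes. Of the 54, 24 had further probes, and all probes of the gene had the same sign in 15 of these, so the size for single genes rests on the brightest probe. Guanylate-binding proteins and immunity-related GTPases, interferon-induced proteins that attack pathogen-containing vacuoles, were all higher: 18 of 18 compared passed 2-fold, the median was 1.94, and 12 to 18 passed over the normalizations. Gbp5 stood at 5.17 with CRL1505, 2.03 with CRL1506 and 1.87 with LPS, a difference of 3.14 or 8.83-fold, but its second probe was at -0.93. Gbp2 stood at 5.57, 3.11 and 3.43 (2.46), Gbp2b at 5.98, 3.45 and 3.37 (2.54), and Igtp at 6.20, 3.93 and 3.91 (2.27). In all 3, CRL1506 lay close to LPS and CRL1505 stood apart. The smallest differences were 1.08 for Irgm1 and 1.10 for Gvin1. Genes of this family are near-identical in sequence, so a probe may read its neighbours and the values are uncertain as to the single gene.

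IFIT, IFITM and other antiviral genes were all above 0, apart from Bst2, Eif2ak2 and Ifitm3 when the spiked-in controls were matched, with 28 of 40 at least 2-fold higher with CRL1505, a median of 1.30 and a range of that median from 0.78 to 1.79. Ifi205, a DNA sensor, stood at 2.50, -1.02 and -1.03, a difference of 3.52. Ifit2, which blocks translation of viral RNA, stood at 5.39, 3.5 and 2.56 (1.88), Isg20, an RNA exonuclease, at 6.11, 4.07 and 3.34 (2.04), and Rsad2, the radical enzyme viperin, at 8.40, 7.14 and 6.04 (1.25). In these 3 genes the order was CRL1505, CRL1506, LPS. Isg15, the ubiquitin-like modifier, followed it at 8.54, 7.36 and 6.82, a difference of 1.18. Usp18, which removes Isg15 from proteins, differed by 1.5. The smallest differences were Bst2 at 0.24 and Eif2ak2 at 0.26. Probes disagreed for Ifih1, the RNA sensor MDA5, at 1.5 and -1.5, and for Mx2, at 0.74 and -2.37.

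The list of oligoadenylate synthetases, which sense double-stranded RNA, and related genes was higher by less, with 0 of 9 past 2-fold, 8 above 0, or 6 when the spiked-in controls were matched, and a median of 0.60. Oasl2 had the highest value at 0.92, and the 1 member below 0 stood at -0.99. In each of the 7 normalizations except matched medians, 1 gene of this list was at least 2-fold higher with CRL1506. Schlafen genes had 2 of 7 past 2-fold, with Slfn4 at 1.60. The factors that carry the signal had 6 of 18 past 2-fold and a median of 0.68 that ranged from 0.16 to 1.18. Irf7, which amplifies interferon production, stood at 8.04, 7.01 and 6.14, a difference of 1.03, and Stat2 differed by 1.03 with a second probe at -0.24. Irf9 differed by 0.58, whereas Irf3, which TRIF activates by phosphorylation, differed by -0.08. Irf2 had 1 probe at 2.27 and another at -1.78.

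Interferon genes themselves were higher where they could be read. In a list added after values were seen, 9 of 12 type I interferon genes passed 2-fold with a median of 1.32 and 12 of 12 were above 0, though Ifna9, Ifna15 and Gm13271 turned below it when the spiked-in controls were matched. Ifna12 stood at -1.79 with CRL1505 and -3.84 with CRL1506 and Ifna5 at -0.60 and -2.14, and the Ifna genes are so alike that their probes cannot be assigned with certainty. PARP genes, several of them interferon-induced, were also a list added after values were seen. Of 12 compared, 6 passed 2-fold (3 to 8 over the normalizations), led by Parp8 at 1.83 and Parp12 at 1.79, the latter with a second probe at -1.07. Of the 6, 5 had further probes, and all probes had the same sign in only 2 of these.

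**Figure D3:**
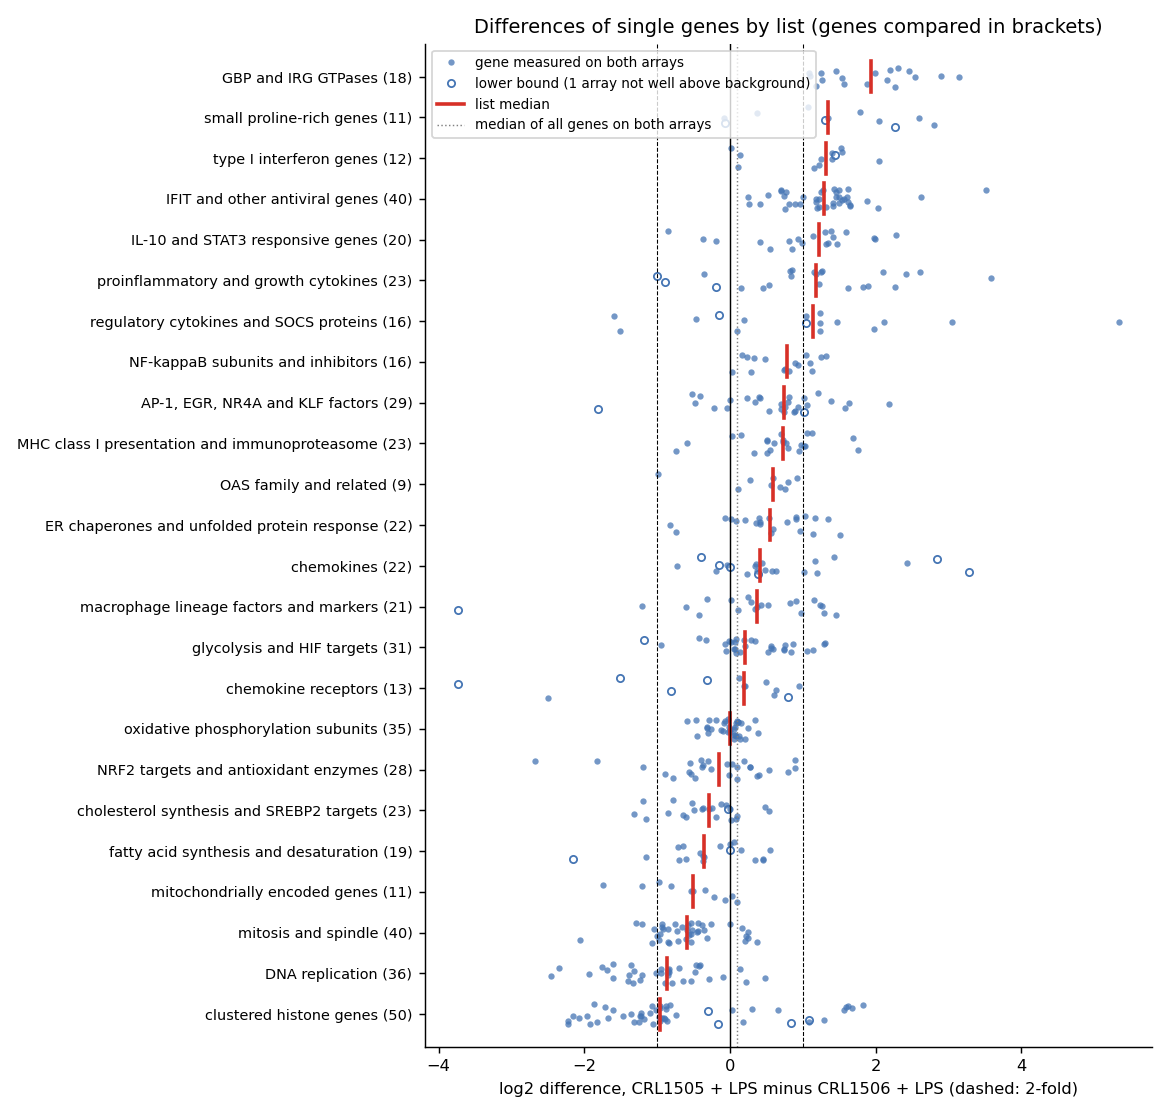
Difference of each member (CRL1505 minus CRL1506, log2 scale, x axis) in 24 gene lists (y axis), with filled points for genes above background on both arrays, open points for lower bounds and a red bar at the list's median. Guanylate-binding and immunity-related GTPases lie past the dashed 2-fold line with a median of 1.94, and DNA replication genes lie mostly left of 0 with a median of -0.87, against 0.09 for genes above background on both arrays (dotted line).

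Upstream of these genes, the receptors and adaptors of the Toll-like receptors had 4 of 25 at least 2-fold higher with CRL1505, 2 with CRL1506 and a median of 0.24, or 0 and 3 past 2-fold with matched spiked-in controls. The shares of 16.0% and 8.00% compare with 8.93% and 6.75% over all genes. Myd88, the adaptor shared by most of them, differed by 1.21. Tlr4, the LPS receptor, stood at 2.26, 1.49 and 2.32, a difference of 0.76, but its 3 probes ran from -0.83 upwards. Tlr13, a sensor of bacterial ribosomal RNA, and Cd180, a TLR4 homologue, were lower with CRL1505 by -1.60 and -1.61, the latter with another probe at 0.25. All 16 NF-kappaB subunits and inhibitors were above 0 with the 75th percentile, those under 0.52 among them turning with the spiked-in controls, with 5 past 2-fold (0 to 10 over the normalizations) and a median of 0.78. Bcl3, Nfkbiz and Nfkb2 differed by 1.32, 1.12 and 1.05, and Relb by 0.02. Rela, the transactivating subunit, stood at 6.51, 5.77 and 6.05, a difference of 0.74. Negative regulators had 7 of 25 past 2-fold with CRL1505 and 1 with CRL1506, Inpp5d, the lipid phosphatase SHIP, at -1.12. With matched spiked-in controls this split turned to 1 and 3 and the median from 0.48 to -0.04. Tnfaip3, the ubiquitin-editing enzyme A20, differed by 1.41 on unevenly read spots, and Sigirr, Sarm1 and Tollip differed by -0.89, -0.68 and 0.22.

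AP-1, EGR, NR4A and KLF factors had 8 of 29 at least 2-fold higher with CRL1505 and 1, Fosb, with CRL1506, with a median of 0.74 that ranged from 0.22 to 1.24, and matched spiked-in controls gave 3 past 2-fold with each strain. Nr4a1, an immediate-early nuclear receptor, stood at 2.80, 0.62 and 0.54 (2.18), Fos at 2.16, 0.53 and 0.40 (1.63), and Jun, the partner of Fos in AP-1, differed by -0.41. The phosphatases that switch MAP kinases off had 4 of 15 past 2-fold and 0 in the other direction, or 3 each with matched spiked-in controls. Dusp2 led at 5.80, 3.44 and 3.80, a difference of 2.36, followed by Dusp10 at 1.65, Dusp5 at 1.59 and Dusp1 at 1.35.

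Effector genes of activated macrophages gave some of the largest values. Nos2, the inducible nitric oxide synthase, stood at 5.64 with CRL1505, 1.55 with CRL1506 and 2.24 with LPS, a 17.1-fold difference. CRL1505 alone was high, and CRL1506 lay below LPS. Slc7a2, the transporter that supplies its substrate arginine, stood at 2.20, 0.11 and -0.13 (2.09), and Gch1, which makes its cofactor, at 6.46, 5.24 and 4.98 (1.22), so that enzyme, substrate transport and cofactor synthesis were all higher with CRL1505. In the list of nitric oxide and arginine metabolism as a whole, 4 of 15 passed 2-fold and the median was 0.39. Ass1 and Asl, which recycle citrulline to arginine, differed by 0.39 and 0.16, and Arg1 and Arg2 were not above background.

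Ptgs2, the inducible cyclooxygenase, stood at 5.00, 2.98 and 3.37, a difference of 2.02, and was the only member of its list of 14 past 2-fold with CRL1505. Ptges, the next enzyme on the way to prostaglandin E, differed by -0.06. The list also held 1 gene at least 2-fold higher with CRL1506, with 7 members above 0, 7 below it and a median of 0.02. Among acute-phase and antimicrobial genes, 5 of 18 were at least 2-fold higher with CRL1505. Saa1 differed by 2.44, and S100a9 stood at -1.30 and was not above background with CRL1506 or LPS, a difference of at least 3.1, whereas its heterodimer partner S100a8 was the 1 gene at least 2-fold lower with CRL1505, at -0.48, 1.14 and 0.83 (-1.62). Mmp13, a collagenase, stood at 4.87, 1.88 and 2.69 (2.99), while Plau, a plasminogen activator, stood at -0.39, 1.21 and 2.16 (-1.60). These 2 proteases thus differed in opposite directions. Small proline-rich genes, known from skin barrier formation, had 8 of 11 past 2-fold, led by Sprr2e at 2.68, -0.12 and -3.81 (2.80) and Sprr2d at 2.59, in both of which the 2 strains lay above LPS. Sprr2a2 differed by -0.09, and these paralogs also share sequence. Complement had Cfb past 2-fold at 1.66 and C3 at 0.99, and of 20 inflammasome and cell death genes only Casp8 passed 2-fold with CRL1505, at 1.04, and Nlrc4 with CRL1506, at -1.43, with Nlrp3 at -0.26.

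At the cell surface, Cd274, the checkpoint ligand PD-L1, stood at 5.43, 3.16 and 1.69, a difference of 2.27, and Slamf7 at 0.99, -1.21 and -3.30, a difference of 2.20. Both had the order CRL1505, CRL1506, LPS. Cd40, which receives T cell help, differed by 1.35, Cd86 by 0.18 with 4 probes from -1.20 to 0.69, and Havcr2, the receptor TIM-3, was not above background with CRL1505, a bound of -2.39. MHC class I presentation had 21 of 23 genes above 0 and 6 past 2-fold (2 to 18 over the normalizations) with a median of 0.73, led by the peptide transporter Tap1 at 5.27, 3.51 and 3.36 (1.76) and the class I transactivator Nlrc5 at 1.70 with a second probe at -0.27. Class II genes did not follow, with a median of -0.27 over 10 genes, 1 past 2-fold with CRL1505 and 2 with CRL1506, and the class II transactivator Ciita was not above background on either array. Among Fc receptors, the activating Fcgr1 and Fcgr4 differed by 1.45 and 1.40, and Treml4 by -2.04.

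Of 35 subunits of oxidative phosphorylation, 22 genes of the tricarboxylic acid cycle and 43 cytosolic ribosomal proteins, 0 passed 2-fold in either direction, with medians of 0.00, 0.08 and 0.24. Of the unfolded protein response, 5 of 22 passed 2-fold with CRL1505 and 0 with CRL1506, with a median of 0.55. The counts were 12 and 0 with matched medians, 0 and 2 with matched spiked-in controls and 2 and 0 after quantile normalization, cyclic loess or normexp and in the deposited table. The chaperone Hspa5 stood at 8.10, 7.07 and 7.12 (1.04), and Xbp1, a transcription factor of this response, at 6.23, 4.89 and 4.92 (1.35, with all 3 probes at 1.35 or more). Glycolysis had 4 of 31 past 2-fold with CRL1505 (0 to 13 over the normalizations), or 12.9% against 8.93% over all genes. Among the 4 were Hk2 at 1.13 and Pfkfb3 at 1.29. Cholesterol and fatty acid synthesis leaned the other way, with medians of -0.29 and -0.36, and 0 of 23 and 0 of 19 higher with CRL1505 against 3 and 2 with CRL1506. Mvd, Dhcr7 and Insig1 differed by -1.31, -1.20 and -1.16, and both medians turned above 0, to 0.12 and 0.13, when the arrays' medians were matched. Of the NRF2 targets, 3 of 28 were at least 2-fold higher with CRL1506, or 10.7% against 6.75% over all genes. They were Gsta3, a glutathione transferase, at -1.66, 1.01 and -2.09 (-2.68), Osgin1 (-1.83) and the cystine transporter Slc7a11 (-1.19). Gsta3 was high with CRL1506 alone, whereas Hmox1, the best known target, differed by -0.37. Hamp, the iron hormone hepcidin, differed by 3.20 on unevenly read spots, and the iron exporter Slc40a1 by -1.31 with a second probe at -0.21.

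Cell cycle genes were lower with CRL1505. Of 36 DNA replication genes, 33 were below 0, 15 were at least 2-fold higher with CRL1506 and 0 with CRL1505, with a median of -0.87 that ranged from -1.39 to -0.37 over the normalizations. Of the 15, 8 had further probes and in all 8 every probe was below 0. Tk1, the thymidine kinase of S phase, stood at 0.77 with CRL1505, 3.23 with CRL1506 and 3.81 with LPS, a difference of -2.46 or 5.49-fold, and its 3 probes ran from -2.49 to -2.17. Rrm2, the subunit that limits deoxynucleotide synthesis, stood at 2.40, 4.75 and 5.10 (-2.35). In both, CRL1506 and LPS were close and CRL1505 was low. Chaf1b, which loads histones on new DNA, differed by -1.94, the polymerase subunit Pold1 by -1.76, the loading factor Cdc6 by -1.69 and the helicase subunit Mcm7 by -1.60. Pcna and Cdt1 differed by only -0.40 and -0.28, and Tyms by 0.48 with another probe at -1.23.

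Mitosis genes followed by less, with 33 of 40 below 0, 6 at least 2-fold higher with CRL1506 and 0 with CRL1505, and a median of -0.58 that ranged from -1.10 to -0.09. Kif23, a motor of cytokinesis, had the largest difference at -2.06, with other probes up to -0.12, followed by Aspm at -1.29 and Kif2c at -1.21. Mki67, the proliferation marker, stood at 4.29, 5.23 and 5.49 (-0.94), and Cdk1, Ccnb1 and Cdc20 differed by -0.35, -0.56 and 0.01. Ccnb2 and Ube2c lay above 0, both at 0.25. The list of G1 cyclins and CDK inhibitors had a median of 0.00 and values in both directions. Ccne1, the cyclin that starts S phase, stood at 0.64, 3.03 and 2.95 (-2.39), and E2f7, E2f1, E2f8 and E2f2 differed by -2.10, -1.97, -1.83 and -1.5. The D cyclins differed by -0.76 to 0.15, and the inhibitors Cdkn1a and Cdkn1b by 1.10 and 0.74, each with a second probe below 0.

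Clustered histone genes, whose transcripts are made in S phase, were also lower with CRL1505 in a list added after values were seen, with 23 of 50 at least 2-fold higher with CRL1506 against 8 with CRL1505 and a median of -0.96. Of the 23, 4 had further probes, and all probes had the same sign in only 1 of these. Of the 8, 2 had further probes, which had the same sign in 1. H1f5 stood at 2.14, 4.37 and 5.28 (-2.23) and H2bc7 at 0.31, 2.46 and 3.20 (-2.15), with LPS highest in both. Among the 8 that went the other way, H2bc4 stood at 4.70, 3.07 and 3.91 (1.62) and H2ac18 at 2.85, 1.57 and 1.29 (1.29). These genes are near-identical copies whose probes can read each other, so single values are uncertain. A list of 11 genes encoded by mitochondria, added likewise, had a median of -0.50 and 2 genes past 2-fold with CRL1506, led by COX1 at 5.41, 7.16 and 5.91 (-1.75).

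**Figure D4:**
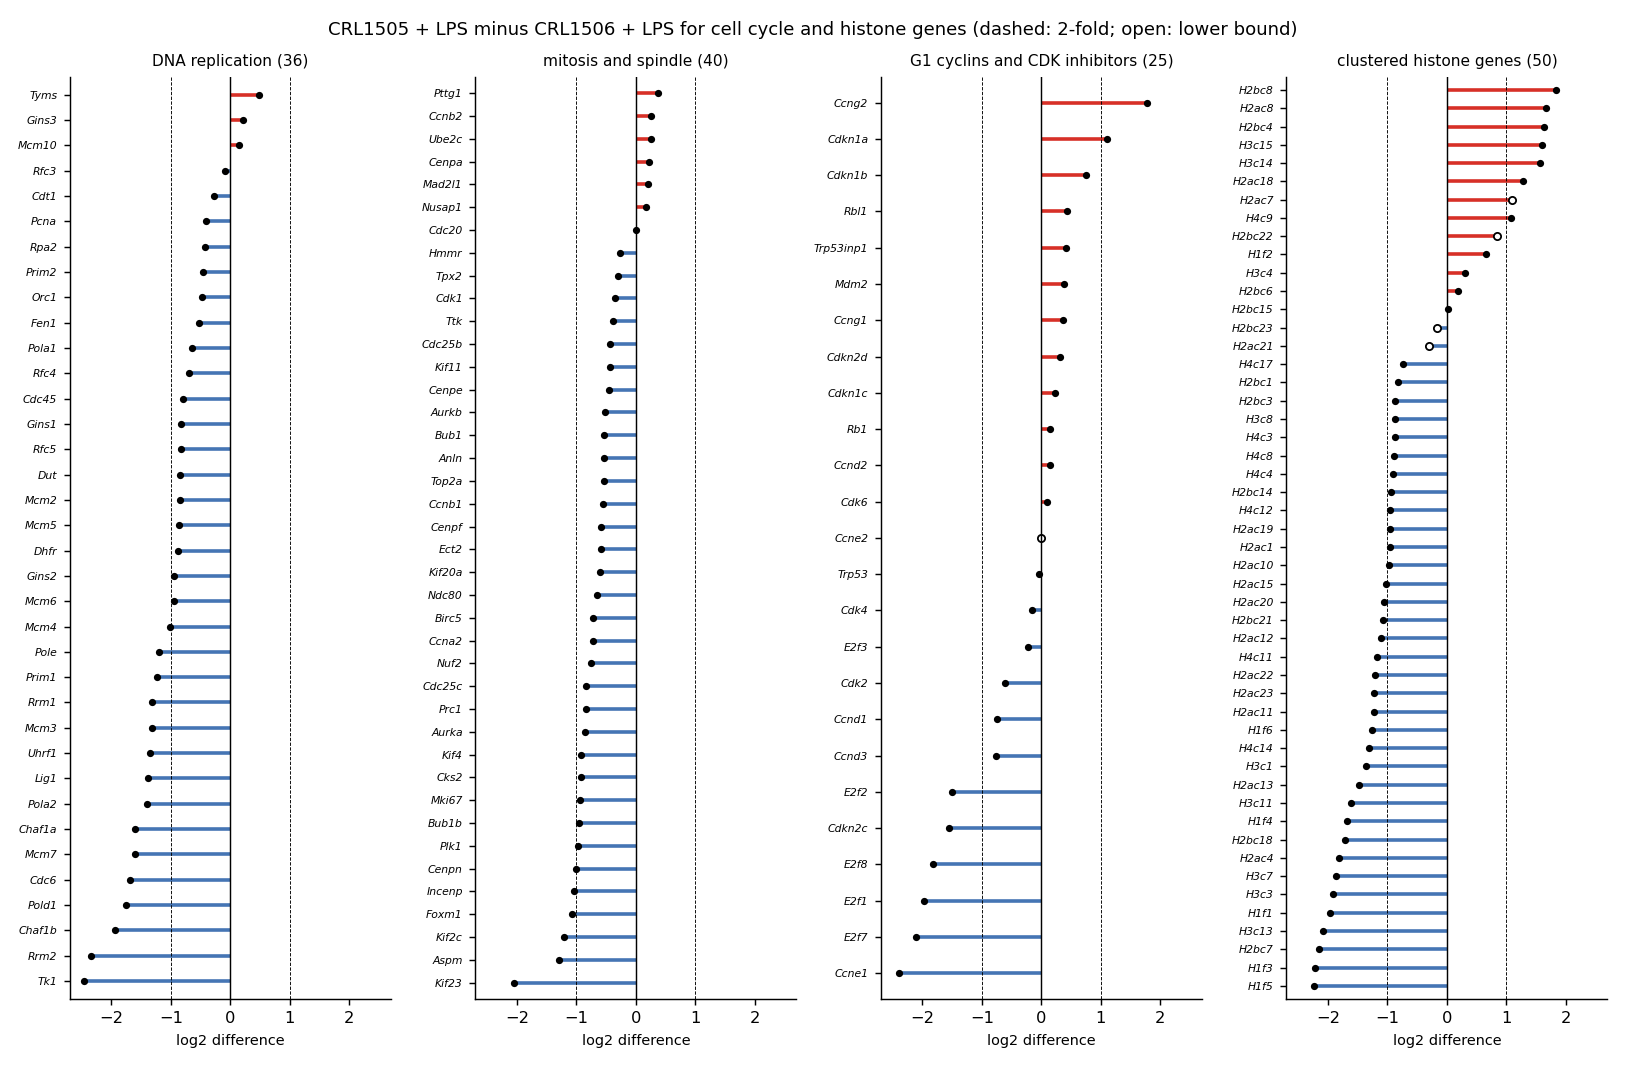
Difference of each gene (CRL1505 minus CRL1506, log2 scale) in 4 panels for DNA replication (36 genes), mitosis (40 genes), G1 cyclins and CDK inhibitors (25 genes) and clustered histone genes (50 genes), with open points for lower bounds. Replication runs from Tk1 at -2.46 to Tyms at 0.48 with 33 of 36 below 0, while the histone genes hold values on both sides, from H1f5 at -2.23 to H2bc8 at 1.83.

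The LPS array, which shares slide and scan run with CRL1506, lay nearer to CRL1506 than to CRL1505 in 65.5% of the 12675 genes above background on all 3 arrays. This held for 88.9% of the genes at least 2-fold higher with CRL1505 and for 67.0% of those at least 2-fold higher with CRL1506. It held for 18 of 18 guanylate-binding and immunity-related GTPases, 39 of 40 IFIT and other antiviral genes, 16 of 19 cytokines, 33 of 36 DNA replication genes and 34 of 40 mitosis genes. What part of these differences goes with the slide or scan run was not tested.

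Markers of the macrophage lineage were present with both strains. Of 21, 20 were above background with CRL1505 and 21 with CRL1506, with summed signals of 1179 and 908.3 times the 75th percentile. Lyz2, Cd68 and Aif1 differed by 0.25, 0.28 and 0.01, Adgre1, the F4/80 antigen, by 1.27 with a second probe at 0.40, and Csf1r, the receptor for the lineage's growth factor, by -0.60. Cebpa, a myeloid differentiation factor, stood at -2.88, -1.67 and -0.56 (-1.20), and Cx3cr1 was the other marker past 2-fold with CRL1506. Of the markers of other cell types, 5 and 7 of 10 for T cells, 3 and 5 of 8 for B cells, 5 and 6 of 12 for neutrophils and mast cells and 2 and 6 of 13 for epithelium and fibroblasts were above background with CRL1505 and CRL1506. Summed signals were 14.0 and 11.1 for T cells, 0.326 and 0.939 for B cells and 1.53 and 1.49 for neutrophils and mast cells, and the sums of 47.4 and 30.7 for epithelium and fibroblasts were nearly all Acta2. Cd79a, Cd3g, Cd8a, Zap70, Krt8, Krt18, Krt19, Cdh1, Pdgfra, Cpa3, Mcpt4, Ctsg and Prtn3 were not above background with either strain. Among T cell markers, Lck stood at 3.09, 2.15 and 1.63, Cd5 at 1.39, 1.95 and 2.46, and Cd3e at 0.06, 0.26 and 0.23, none of them past 2-fold between the strains.

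The largest differences that kept 2-fold under every normalization lay in part outside the lists. Higher with CRL1505, after Il19, were Yap1, a coactivator of the Hippo pathway, at 3.21, -1.90 and 0.93 (5.11), Rnf224 at 3.66, -1.34 and 1.36 (5.00), the taste receptor gene Tas2r109 (3.80), Cfap100 (3.63) and Prl3b1 (3.60), followed by Wfdc13 (3.21), Apba1 (3.21) and Map9 (3.18). Higher with CRL1506 were Tssk6, a sperm kinase, at -1.65, 2.72 and -0.92 (-4.37), Prkar2b, a regulatory subunit of protein kinase A, at -2.79, 0.27 and 0.82 (-3.06), Pde5a, a cyclic GMP phosphodiesterase (-2.91), Cabp5 (-2.74), Tbx22 (-2.66), Ddx25 (-2.65), Shc4 (-2.58) and Lzts3 (-2.53). LPS lay nearer to CRL1505 than to CRL1506 in each of these 8 except Prkar2b. All of these genes but Il19 were read by a single probe. The largest bounds were Sult2a6 (at least 5.06), Afap1 (at least 4.96, with a second probe at 0.87) and Klra23 (at least 4.73) with CRL1505, and Ankrd35 (-5.36, with a second probe at -0.20) with CRL1506.

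The precision of a single difference can be read only within an array. Spots of the same probe repeated on the array gave a median SD of the difference of 0.05 over 275 probes, whereas different probes of the same gene gave 0.32 over 5549 genes. Of 525 genes past 2-fold by the brightest probe that had other probes on both arrays, 61.1% had those probes on the same side of 0, and 1093 had no other probe. A value that rests on 1 probe therefore has no check within these arrays, and neither figure contains the spread between cultures.

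**Figure D5:**
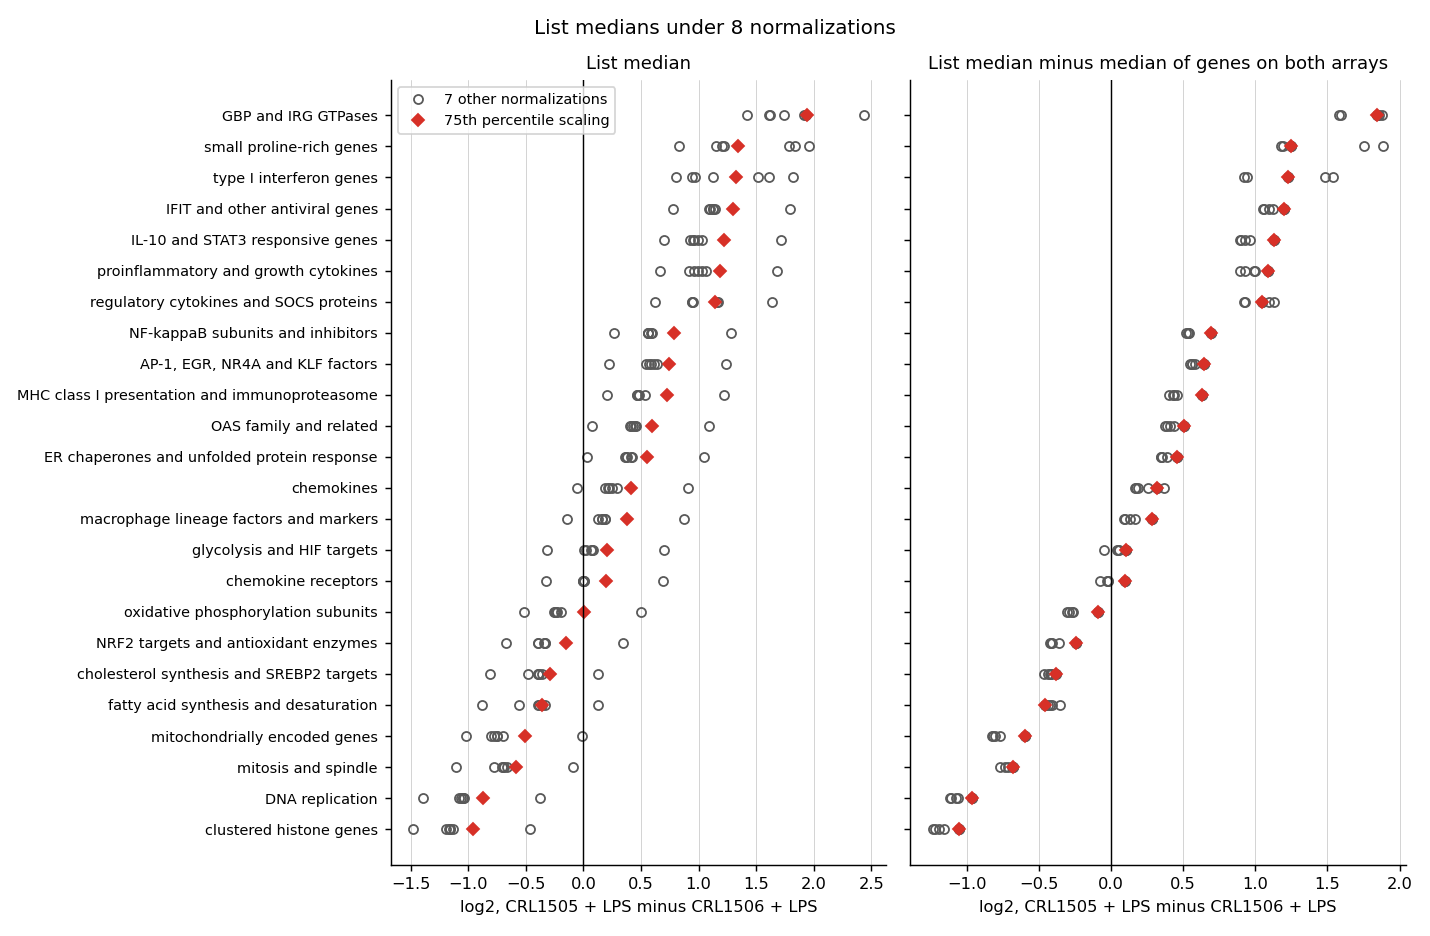
Median difference of 24 gene lists (log2 scale) under the main setting and 7 other normalizations, as computed (left) and after subtracting the median of genes above background on both arrays under the same setting (right). The lists shift together in the left panel, where the median of those genes moves from 0.09 to 0.59 with matched medians and to -0.42 with matched spiked-in controls, and in the right panel the guanylate-binding and immunity-related GTPases stay between 1.58 and 1.88.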

How the data were processed

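Intensities were deposited as 1-colour Agilent scanner output, read per the file headers with Feature Extraction 12.0.3.1, in which the processed signal is background-subtracted; a table of log2 values normalized by the authors was also deposited and was used as an alternative only. Processed signals of gene spots were put on the log2 scale, each array's 75th percentile was subtracted, outlier spots were left out and repeated spots were averaged. A gene was represented by its probe with the highest mean level on both arrays, and probes well above background on neither array were left out. For a gene above background on 1 array, the dim side was set to the lower limit of probes above background there, or to its own level if higher. Genes were counted past 2-fold, the threshold in the study's methods, with no test, since there was 1 array a group. A spot was called uneven where its mean pixel exceeded its median by 0.2 on the log2 scale, or where 5 of its 20 nearest spots did. Of 56605 gene probes, 43943 took a symbol from RefSeq, 33762 by accession, 9871 by symbol and 310 by synonym. Genes were named as the 15 largest differences in each direction that kept 2-fold in every normalization with agreeing probes and even spots, the 5 largest bounds, up to 6 members past 2-fold and 3 defining members of each of 55 lists, and genes of the study's text; 5 further lists, and the genes named from them, were added after values were seen. Values of some genes these rules name are not reported here. The members and lists were chosen with earlier results of these data known. Computation used R 4.3.3, limma 3.58.1, NumPy 2.4.6, pandas 2.3.3 and, for the scripts, Python 3.11.15. On simulated arrays, 100% of 200 genes changed 4-fold were recovered past 2-fold, with 0 of 12653 unchanged genes past it. These arrays held only the noise of repeated spots, and the changed genes stood above the 75th percentile. The result therefore checks the computation, and it gives no rate of false calls between probes, slides, scalings or cultures. The number of arrays limits the precision.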

Additional observations from a re-analysis of the deposited data

How the results depend on the processing

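No paired analysis was possible because there was 1 array a group. The count of genes at least 2-fold higher with CRL1505, 1368, became 3433 with matched medians, 643 with matched spiked-in controls, 876 with normexp and quantile normalization, 878 in the deposited log2 table, and 2929 and 362 at 1.5-fold and 4-fold. The count with CRL1506, 1035, became 379, 2992, 504, 526, 2465 and 145 in the same order, 1581 with the percentile over detected probes, 3365 with no filter on dim probes and 676 with probes above background on both arrays only. The other settings left each count within 1.5 times, including outlier spots kept, uneven spots left out, the mean over probes and the removal of a trend with probe GC content, along which the median difference fell from 0.26 to -0.10. Setting the median of genes on both arrays to 0, an alternative chosen after seeing the data, gave 1171 and 1262, so that the split turned. Of 270 named genes past 2-fold, the sign of 4 turned, in 1 setting each: Ccng2 (-0.19) and Cd69 (-0.0508) with the mean over probes, Il18bp (-4.04) with outlier spots kept and Pde4d (-0.37) with quantile normalization. Of 18 named genes under 2-fold, 9 turned sign in at least 1 setting, and so did 37 of 60 list medians, 36 of them with matched medians or spiked-in controls. Of the values of all 288 genes, 2485 moved by less than the spread between probes and 948 by more, and of the list medians 579 and 141. The causes were not tested.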
